A study of Mus musculus with 12 samples.

Results

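The genes described here are the 10 fatty acid desaturases and elongases Fads1, Fads2, Fads3, Fads6, Scd1, Scd2, Elovl2, Elovl4, Elovl5 and Elovl6, followed over age in the mouse testis. They were chosen by symbol: a transcript counted as a member where the transcript table gave it one of these symbols and a class code of =, c, j or o, the codes for a transcript that matches, lies within, shares a splice junction with or otherwise overlaps a reference transcript on the same strand. This gave 16 transcripts of 10 genes, out of 60321 transcripts of those classes and 24516 genes with a symbol. Total RNA was sequenced from the testes of male C57BL/6 mice, an inbred laboratory strain, without any treatment or genetic change, at 3, 6, 12 and 18 months after birth (3M, 6M, 12M and 18M), with 3 libraries at each age that the design calls biological replicates. The labels do not say whether each library came from a single mouse. The libraries are named by age and replicate number (3M-1 is replicate 1 at 3 months). Whole testis was used, so the values mix all cell types of the organ, and fewer cells of a type cannot be told apart from less RNA per cell.

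Desaturases introduce double bonds into fatty acids, and elongases carry out the rate-limiting condensation that lengthens them. Fads2 opens the pathway from the essential dietary fatty acids to the long polyunsaturated ones, Elovl5 and Elovl2 extend the chain in turn, and Fads1 introduces a further bond between those steps. The rodent testis is rich in such long polyunsaturated fatty acids, which are held in the membranes of germ cells and Sertoli cells, and male mice that lack Fads2 or Elovl2 do not make normal sperm. Scd1 and Scd2 desaturate saturated fatty acids to monounsaturated ones, and Elovl6 lengthens the saturated chains that they use. Elovl4 makes the very long chains of sphingolipids, and Fads3 acts on sphingoid bases.

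Elovl2 was the member with the highest level, and its transcripts began at 2 places 241 nt apart on chromosome 13 (mm10, minus strand). The stretch before each start is shown because reads from the 2 first exons tell the starts apart. The sequences are those of RefSeq for GRCm38.p6, the assembly that mm10 names, and read 5′ to 3′ on the minus strand. The outer stretch, chr13:41220404-41220653, lies before the first exon of NM_019423, and the inner stretch, chr13:41220163-41220354, fills the gap between both first exons and leads into that of NM_001311121. Capitals mark the GC box GGGCGG.
outer start: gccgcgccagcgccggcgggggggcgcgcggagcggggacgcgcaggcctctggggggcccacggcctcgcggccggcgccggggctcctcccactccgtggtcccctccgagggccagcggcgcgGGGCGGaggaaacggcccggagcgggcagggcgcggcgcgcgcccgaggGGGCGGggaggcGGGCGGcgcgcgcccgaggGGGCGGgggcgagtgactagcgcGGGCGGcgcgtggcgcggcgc
inner start: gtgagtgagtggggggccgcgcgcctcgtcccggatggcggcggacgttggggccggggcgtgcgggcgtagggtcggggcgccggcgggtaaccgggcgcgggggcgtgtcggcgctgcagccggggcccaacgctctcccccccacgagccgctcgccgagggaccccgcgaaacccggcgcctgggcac

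The outer stretch of 250 nt held 5 GC boxes and 49 CpG dinucleotides, and the inner stretch of 192 nt held 0 GC boxes and 32 CpG dinucleotides. The reads came mostly from the inner start. Normalised coverage, here the mean read depth that StringTie assigned to an exon per 1000000 TMM-scaled reads of the library, was 2.9 to 5.29 over the inner first exon (chr13:41220037-41220162) and 0.306 to 0.556 over the outer one (chr13:41220355-41220403), so that the inner first exon was higher in all 12 libraries. GENCODE places the start codon of the longer protein in the last 3 nt of the outer first exon, while the inner one is annotated as untranslated.

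The libraries held 50924104 to 71803379 reads over all transcripts. Levels are given as FPKM, which scales the reads of a transcript by its length and by the size of the library, summed over the transcripts of a gene. FPKM is the scale on which different genes are set side by side. As a check of the tissue, markers of elongating spermatids summed to 24200 to 35600 FPKM and those of round spermatids to 827 to 1030 FPKM, while 7 of 7 markers of the epididymis, the duct attached to the testis, stayed under 1 FPKM in every library, with Lcn5 and Adam7 at 0 throughout. Of 7 markers of fat cells, 5 stayed under 1 FPKM; Adipoq was at 5.55 to 8.29 FPKM. Coverage fell off towards the 5′ end to different degrees: over 1185 genes with 1 transcript, the median log2 ratio of first-exon to last-exon coverage was -0.4218 to -0.646 in the 3M libraries, -0.547 to -0.7409 in the 6M, -0.4657 to -1.0739 in the 12M and -0.5159 to -0.8512 in the 18M libraries, with the lowest values in 12M-3 and 18M-3.

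The members covered a wide range of levels. By mean FPKM over the 12 libraries the order was Elovl2 (46.2), Fads2 (28.1), Scd2 (22.9), Elovl5 (19.9), Fads1 (10.5), Elovl6 (2.35), Fads6 (1.94), Scd1 (1.14), Fads3 (0.968) and Elovl4 (0.101). The ranges over libraries of neighbours in this order did not overlap between Elovl5 and Fads1, between Fads1 and Elovl6, and between Fads3 and Elovl4, and overlapped between all other neighbours. Fads2 was above Scd2 in 12 of 12 libraries, and Elovl2 above Fads2 in 7 of 12. The FPKM of Elovl2 includes a last exon whose coverage split the libraries, as described below. The other Elovl2 exons were at 5.27 to 8.17 in normalised coverage over the libraries. In Fads2 the last exon was at 2.27 to 3.92 and the other exons at 1.34 to 3.27. Elovl2 and Fads2 stood at the 92.3 and 88.4 percentiles of all genes, and Elovl4, with 7 to 34 reads a library, at the 25.6 percentile.

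**Figure D1:**
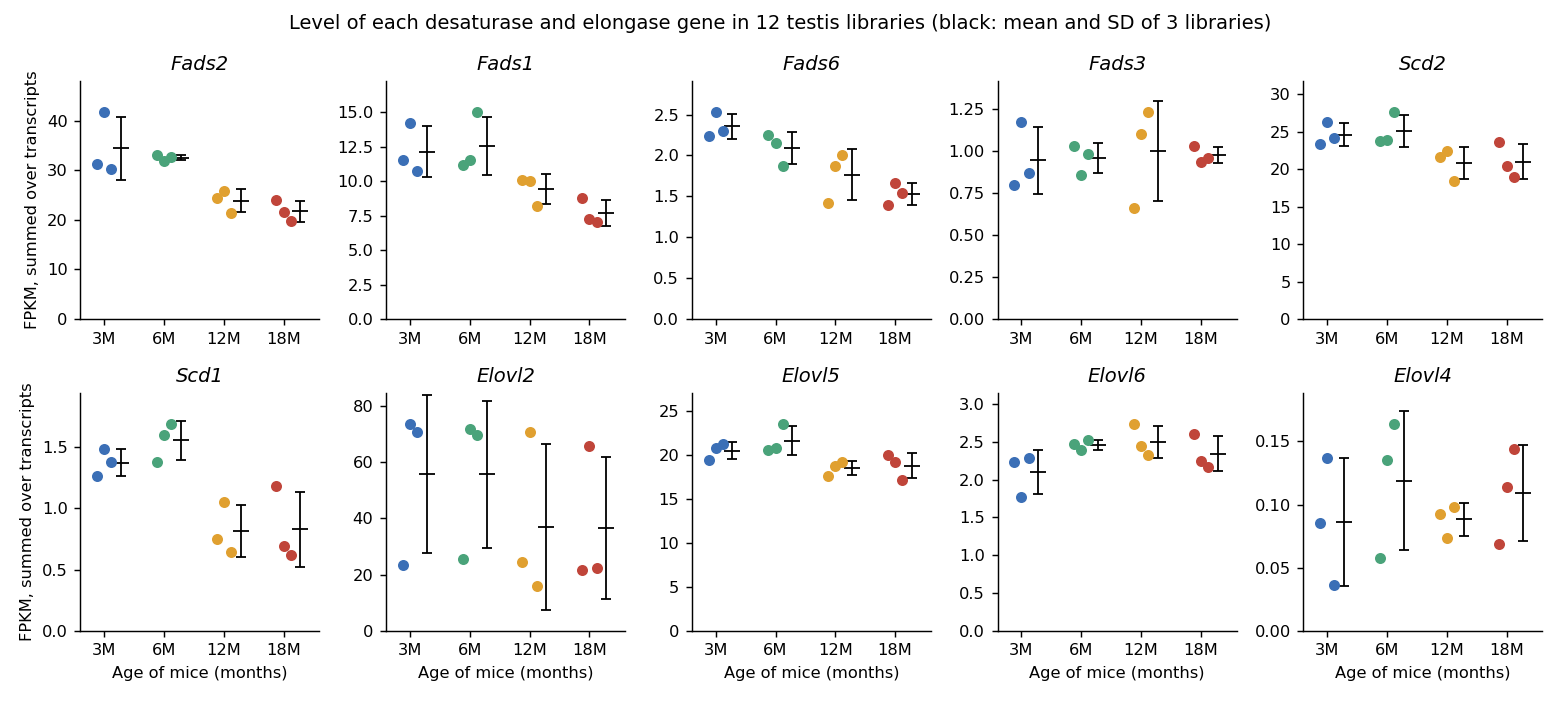
FPKM of each gene, summed over its transcripts, in every library (points, by age in months) with the mean and SD of the 3 libraries of an age (black). The 6 points of Fads2 at 3M and 6M lie at 30.3 or above and the 6 at 12M and 18M at 25.9 or below, whereas Elovl2 splits into low and high libraries at every age.

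Fads2, the desaturase that opens the polyunsaturated pathway, fell with age. Its level was 31.2, 41.7 and 30.3 FPKM in the 3M libraries, 33, 31.9 and 32.7 at 6M, 24.3, 25.9 and 21.3 at 12M, and 23.9, 21.6 and 19.7 at 18M. All libraries of the younger ages, 3M and 6M, were above all libraries of 12M and 18M. The share of all genes whose libraries part in such a way was not counted, for this member or for those below. The mean went from 34.4 ± 6.35 FPKM at 3M to 21.7 ± 2.13 at 18M (SD, n = 3 each). Over all 12 libraries the slope on age was -0.0436 per month on the log2 scale (SE 0.0066, edgeR quasi-likelihood test on counts, adjusted p = 0.014 over 18545 genes), which comes to -0.65 from 3 to 18 months.

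Fads1, the desaturase that acts further along the same pathway, fell alongside. Its level was 11.5, 14.2 and 10.7 FPKM at 3M, 11.2, 11.5 and 15 at 6M, 10.1, 10 and 8.2 at 12M, and 8.78, 7.28 and 7.01 at 18M. The 3 libraries of 18M were below all 6 of 3M and 6M, while those of 12M lay in between and overlapped 18M. The mean was 12.1 ± 1.79 FPKM at 3M and 7.69 ± 0.956 at 18M (SD, n = 3 each). The slope was -0.0472 per month on the log2 scale (SE 0.0082, edgeR, adjusted p = 0.0299), or -0.71 from 3 to 18 months.

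Fads2 and Fads1 were the members called on the slope, 2 of 10, both lower in older mice. Among all genes 0.41% were called, 0.313% lower and 0.0971% higher in older mice. That background of 76 genes became 18 without 18M-3 and 192 without 18M-1. At an unadjusted p of 0.05 or less stood 6 of 10 members, all lower, beside 17.5% of all genes (9.23% lower and 8.26% higher), and DESeq2 called 4 of 10 beside 3.11%. The median slope of the 10 members was -0.0287 per month, with 7 of 10 below 0, beside a median of -0.0002 over all genes. The call of Fads2 was lost without 18M-3 (edgeR, adjusted p = 0.0695). The call of Fads1 was lost without any of 3M-2, 6M-1, 6M-2, 12M-1, 12M-2, 18M-2 or 18M-3, with edgeR adjusted p-values from 0.0502 to 0.133, and with the replicate number as a block (0.0592).

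**Figure D2:**
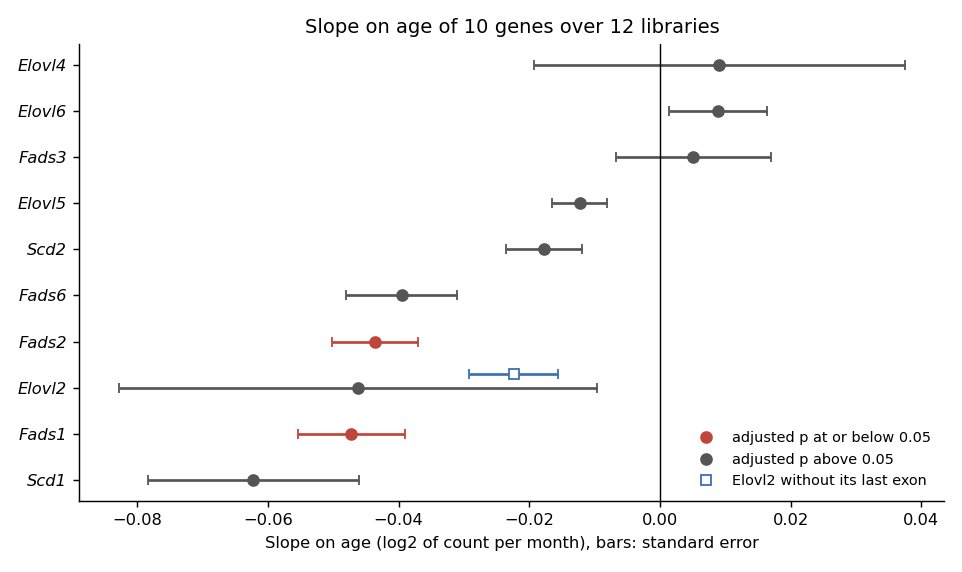
Slope on age in log2 of count per month, with its standard error, for the 10 genes over 12 libraries (edgeR). Fads1 and Fads2 have an adjusted p at or below 0.05; the open square is Elovl2 counted without its last exon, whose standard error is 0.00684 against 0.0366 with it.

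Scd1, a monounsaturated fatty acid desaturase best known from liver and fat, was a low gene here. Its level was 1.26, 1.48 and 1.38 FPKM at 3M, 1.38, 1.6 and 1.69 at 6M, 0.75, 1.05 and 0.642 at 12M, and 1.18, 0.69 and 0.618 at 18M. Every 3M and 6M library was above every 12M and 18M library, the nearest being 3M-1 and 18M-1, an order whose share among all genes was not counted. Its slope had the largest size of the 10, -0.0622 per month on the log2 scale (SE 0.0162), and it did not pass the test (edgeR, adjusted p = 0.113). Without 18M-1 it was -0.0842 and passed (edgeR, adjusted p = 0.0183).

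Scd2, the related desaturase of brain and many other tissues, was the more abundant of the pair in every library. Its level was 23.4, 26.3 and 24.1 FPKM at 3M, 23.8, 23.9 and 27.6 at 6M, 21.6, 22.4 and 18.4 at 12M, and 23.6, 20.4 and 19 at 18M. The 3M and 18M libraries overlapped, since 18M-1 was above 3M-1. All of 12M lay below all of 3M and 6M, and all of 18M below all of 6M. The slope was -0.0178 per month (SE 0.0058, edgeR, adjusted p = 0.165). Within each library the log2 ratio of Scd1 to Scd2 counts was -4.38, -4.32 and -4.3 at 3M and -4.49, -5.05 and -5.11 at 18M. Scd1 was thus lower relative to Scd2 in all 3 libraries of 18M, with a mean difference of -0.55 (exact permutation test, two-sided, p = 0.1, the least that 3 against 3 allows, 0.3 after adjustment over the 3 ratios tested). The other 2 ratios gave exact permutation p-values of 0.7 for Fads1 to Fads2 (difference -0.03) and 0.6 for Elovl2 to Elovl5 (difference -0.5, from -1.03 without 18M-2 to -0.19 without 18M-1).

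Fads6, a little-studied relative of the desaturases, was at 2.24, 2.53 and 2.3 FPKM at 3M, 2.25, 2.15 and 1.87 at 6M, 1.42, 1.87 and 2.01 at 12M, and 1.39, 1.66 and 1.54 at 18M. The 18M libraries were all below those of 3M and 6M. The slope was -0.0395 per month on the log2 scale (SE 0.0085) and stayed short of the threshold (edgeR, adjusted p = 0.0701). Fads3, the sphingoid base desaturase, was at 0.663 to 1.23 FPKM in the 12 libraries, with both extremes at 12M, and its slope was 0.0051 (SE 0.0119, edgeR, adjusted p = 0.856).

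The comparison of 3M with 18M alone, the contrast between the youngest and the oldest mice, called 0 of the 10 members (edgeR, 5 at an unadjusted p of 0.05 or less, 2 by DESeq2), where edgeR called 0.0662% of 18130 genes, 13.5% stood at such an unadjusted p and DESeq2 called 1.43%. The log2 fold changes were -0.64 for Fads1 (SE 0.12, edgeR adjusted p = 0.237), -0.61 for Fads2 (SE 0.12, 0.253), -0.61 for Fads6 (SE 0.12, 0.255) and -0.72 for Scd1 (SE 0.23, 0.303). These 4 members had all 3M libraries above all 18M libraries in CPM, the count scaled to library size, as did 10.8% of all genes tested, and 0 members had the reverse order, as did 9.67% of genes. DESeq2 called Fads1 (adjusted p = 4.96e-05) and Fads2 (adjusted p = 1e-04).

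Of the steps between consecutive ages, that from 6M to 12M was the largest for Fads1, Fads2 and Scd1. From 6M to 12M the log2 fold change was -0.91 for Scd1 (SE 0.19), -0.41 for Fads1 (SE 0.12), -0.4 for Fads2 (SE 0.07), -0.25 for Scd2 (SE 0.09) and -0.21 for Elovl5 (SE 0.07). None of the 10 members was called at this step by edgeR (background 0.0551%). At an unadjusted p of 0.05 or less stood 5 members, beside 8.48% of all genes, and DESeq2 called 2, beside 0.678%. From 3M to 6M edgeR called 0 members (background 0.0497%), with 0 at an unadjusted p (background 4%) and 0 by DESeq2 (background 0.364%). From 12M to 18M edgeR also called 0 (background 0.0275%), with 1 at an unadjusted p (background 3.48%) and 0 by DESeq2 (background 0.209%). Whether the steps differ from each other was not tested. The steps share the libraries of the age between them.

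Elovl2, the elongase that follows Elovl5 in the polyunsaturated pathway, differed less between ages than between libraries of the same age. Its level was 23.5, 73.6 and 70.5 FPKM at 3M, 25.6, 71.7 and 69.5 at 6M, 24.3, 70.5 and 15.9 at 12M, and 21.7, 65.6 and 22.2 at 18M. Low libraries at 15.9 to 25.6 FPKM and high ones at 65.6 to 73.6 FPKM stood side by side at every age, and the library numbered 1 was low at each of the 4 ages. By the smallest of the 4 ratios of highest to lowest library within an age, which was 2.8 in CPM, Elovl2 ranked 26 among 11678 genes with a mean of 5 CPM or more. The slope over age was -0.0462 per month with an SE of 0.0366 (edgeR, adjusted p = 0.536), and -0.0901 without 18M-2, the high library of that age.

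The split between libraries lay in the last exon of Elovl2. That exon, chr13:41182382-41185407, is 3026 nt long, and only 111 nt of it are coding in GENCODE, so that nearly all of it is 3′ UTR. Its normalised coverage was 0.975, 7.58 and 7.35 at 3M, 1.2, 7.54 and 7.24 at 6M, 1.19, 7.45 and 0.596 at 12M, and 0.988, 7.25 and 1.33 at 18M. The other exons, 937 nt in all, were at 7.31, 8.17 and 7.98 at 3M, 7.57, 7.75 and 6.83 at 6M, 7.07, 7.85 and 5.27 at 12M, and 6.48, 6.35 and 5.72 at 18M. The last exon thus held 0.113 to 0.233 times the coverage of the other exons in the 6 low libraries and 0.921 to 1.14 times in the 6 high ones. Highest and lowest library differed 12.7-fold over the last exon and 1.55-fold over the rest. Of all transcripts in the table, only the 2 of Elovl2 overlapped the last exon, so no other deposited transcript held reads there. The cause of the low coverage was not tested.

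**Figure D3:**
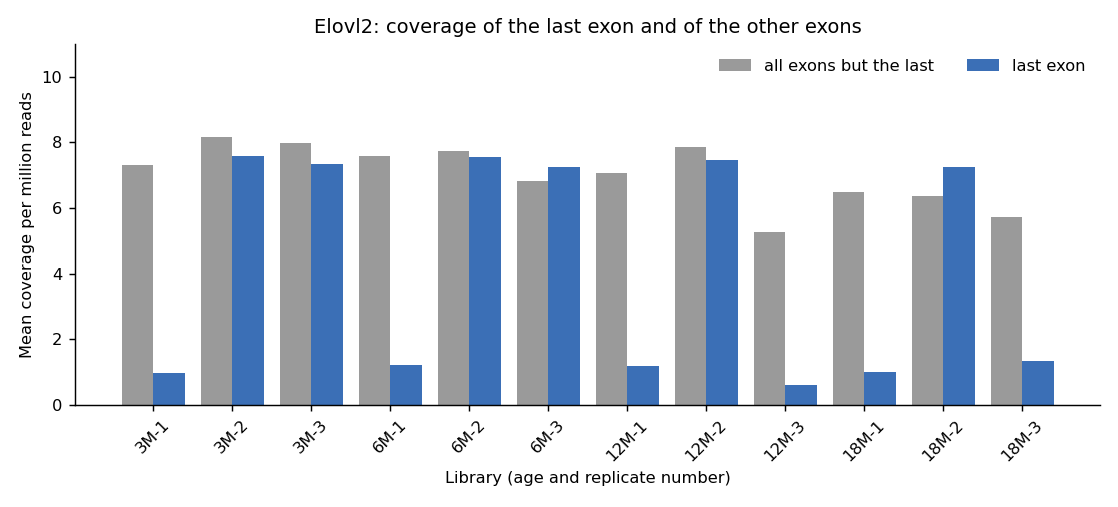
Normalised coverage (mean read depth per 1000000 TMM-scaled reads) over the last exon of Elovl2 (blue) and over its other exons (grey), in each of the 12 libraries. The grey bars stay between 5.27 and 8.17, and the blue bars are at 1.33 or below in 6 libraries and at 7.24 or above in the other 6.

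Counted without its last exon, Elovl2 had a smaller slope with a much smaller error. The coding and 5′ exons had a mean normalised coverage of 7.82 in the 3M libraries, 7.38 in the 6M, 6.73 in the 12M and 6.19 in the 18M libraries, and all 18M libraries were below all 3M libraries. Their log2 difference between 18M and 3M was -0.34 (exact permutation test, two-sided, p = 0.1, the least that 3 against 3 allows). In the edgeR fit on all genes the slope of these exons was -0.0224 per month (SE 0.00684, adjusted p = 0.148), so that neither count of Elovl2 passed the test. This count was chosen after the data were seen.

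The division of Elovl2 reads between its transcripts largely followed the same split. NM_001311121, from the inner start, held 75.1% of the gene's FPKM, and NM_019423, from the outer start, 24.9%. By library the share of NM_001311121 was 83.4 to 86.9% in 3M-2, 3M-3, 6M-2, 12M-2 and 18M-2, which are high libraries, and 56 to 64% in all the others, which include the high library 6M-3. Only the first exons distinguish the 2 transcripts. Their normalised coverage was 4.1 for the inner and 0.386 for the outer one in 6M-2, where NM_001311121 held 83.4%, and 3.56 and 0.449 in 6M-3, where it held 57.4%.

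Elovl5, the elongase of the middle steps of the polyunsaturated pathway, was among the steadiest members. It stood at 19.5, 20.8 and 21.3 FPKM at 3M, 20.6, 20.8 and 23.6 at 6M, 17.6, 18.8 and 19.2 at 12M, and 20, 19.2 and 17.2 at 18M. The 18M libraries overlapped those of 3M and 12M and lay below all of 6M. Those of 12M lay below all of 3M and 6M. The slope was -0.0123 per month (SE 0.0042, edgeR, adjusted p = 0.177). The RefSeq transcript NM_134255 held 65.4% of its FPKM, MSTRG.21168.1 held 25.8% and MSTRG.21168.3 held 8.76%.

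The 2 assembled Elovl5 transcripts ran past the RefSeq end into another annotated gene. They ended at chr9:78002290 and chr9:78002301, 17782 nt beyond the RefSeq end in the longer case, and their last exons lie inside the GENCODE lincRNA gene Gm34829 (chr9:77992599-78002261) or end just past it. Coverage of the last Elovl5 exon of these transcripts was 0.592 to 0.884. The log2 difference between 18M and 3M was 0.23 over the last exon (exact permutation p = 0.2) and -0.19 over the rest (exact permutation p = 0.1). Over all 12 libraries the slopes in log2 coverage were 0.0149 and -0.0168 per month (permutation test with 100000 draws, unadjusted p = 0.0656 and 0.0039). The sum of the gene thus joins parts whose estimates had opposite signs. The difference between these parts was not tested. Without strand information, reads of overlapping genes cannot be told apart. MSTRG.21168.1 was at 8.32 FPKM in 12M-3, where MSTRG.21168.3 was at 0.0126, and at 0.65 FPKM in 18M-3, where MSTRG.21168.3 was at 4.04.

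Elovl6, the elongase of saturated chains, was at 1.77 to 2.74 FPKM, lowest in 3M-2 and highest in 12M-1. Its slope was 0.0089 per month (SE 0.0075, edgeR, adjusted p = 0.561). Nearly all of it, 99.5% of the FPKM, came from the assembled transcript MSTRG.13464.2, which starts 94168 nt downstream of the RefSeq start, in an intron, and has 3 exons. Its first exon (chr3:129626554-129627513, 960 nt) is not part of any GENCODE exon of Elovl6 and was covered at 0.263 to 0.503, as was the next, coding exon at 0.281 to 0.578. The 3 upstream RefSeq exons, which hold the start codon, were covered at no more than 0.0222 in any library. RefSeq NM_130450 was at no more than 26 reads in a library and did not pass the filter on low counts.

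Elovl4, the elongase of very long chains, was close to the detection limit, with 0.0362 to 0.164 FPKM. Its reads fell mostly on the last exon (chr9:83778692-83780809), which is 2118 nt long and was covered at only 0.00563 to 0.0231. The other exons, 936 nt in all, were together at 0 to 0.0123. The 3 exons before the last, all coding, were at no more than 0.0236 in any library. The coding exon before those reached 0.0321 in 6M-2. Its slope, 0.0091 per month with an SE of 0.0284 (edgeR, adjusted p = 0.897), changed sign when 3M-3 (-0.0085) or 18M-3 (-0.0074) was left out.

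Along the gene bodies of Fads1, Fads2, Scd1, Fads6 and Scd2, mean coverage was lower at 18M than at 3M both before and over the last exon, with the smaller difference over the last exon in each; the difference between these parts was not tested. The log2 difference in coverage between 18M and 3M was -0.89 over the earlier exons and -0.55 over the last exon in Fads1, -0.74 and -0.5 in Fads2, -1.11 and -0.73 in Scd1, and -0.72 and -0.27 in Fads6. In Scd2 the earlier exons differed by -0.69 and the last exon, 3862 nt of almost only 3′ UTR, by -0.14. The two-sided exact permutation p was 0.1, the smallest possible, for both parts of Fads1, Fads2 and Scd1 and for the earlier exons of Fads6, 0.3 for its last exon, and 0.2 and 0.3 for the parts of Scd2. Over all 12 libraries the slope in log2 coverage of the earlier Scd2 exons was -0.0448 per month against -0.0137 over the last exon (permutation test with 100000 draws, p = 0.0182 and 0.0436). Elovl2 had the reverse order, with -0.34 over the earlier exons and -0.84 over the last exon (exact permutation p = 0.1 and 0.6). Its last exon is the one that split the libraries. Elovl5 differed by -0.19 and 0.23, as given above. Differences above 0 in both parts were seen in Fads3 (0.03 and 0.17), Elovl6 (0.27 and 0.15) and the barely covered Elovl4 (0.74 and 0.52). Their exact permutation p-values were 0.3 to 0.8. The libraries' own first-exon to last-exon ratio, given above, overlapped between 3M and 18M, with -0.646 in 3M-1 and -0.5159 in 18M-1. In 18M-2 and 18M-3 it was -0.762 and -0.8512, below every 3M library. The part of this ratio in these differences was not tested. With that ratio as a covariate the slope of Fads2 was -0.0373 (edgeR, adjusted p = 0.0352) and that of Fads1 -0.0433 (0.107), and without 12M-3 and 18M-3 they were -0.0391 (0.0876) and -0.0414 (0.16), all chosen after the data were seen.

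**Figure D4:**
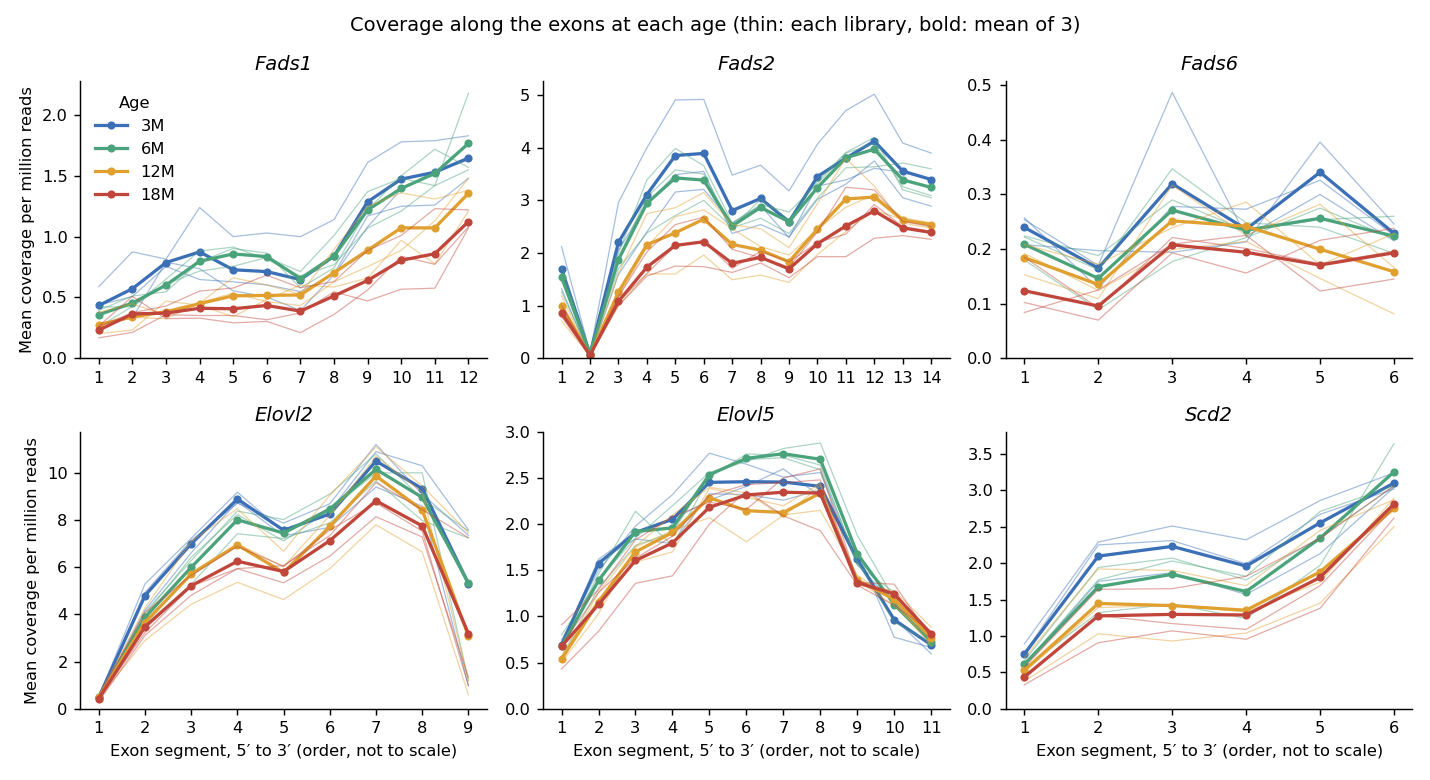
Normalised coverage (mean read depth per 1000000 TMM-scaled reads) along 6 genes, exon segments ordered 5′ to 3′ and not to scale, with thin lines for libraries and bold lines for the mean of an age. Segments under 40 nt or under 0.1 in every library are left out; the mean lines of 18M and 12M run below those of 3M and 6M in every segment drawn of Fads1 and Fads2, while lines of single libraries cross, and the Elovl2 lines part at the last exon.

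Fads1, Fads2 and Fads3 are neighbouring genes on chromosome 19, which also carries Scd1 and Scd2. Fads3 (chr19:10041548-10059671, plus strand) ends 3105 nt from the 3′ end of Fads2 (chr19:10062776-10101503, minus strand), and Fads1 (chr19:10182888-10196872, plus strand) starts 81385 nt from the start of Fads2 in the opposite direction. Of the cluster, Fads1 and Fads2 fell, and Fads3 had a slope of 0.0051 per month (SE 0.0119). Across the 12 libraries the Pearson correlation of log2(CPM + 1) was 0.936 between Fads1 and Fads2 and 0.937 between Scd1 and Scd2, whose 3′ ends are 87588 nt apart. Pairs that are not neighbours came close, with 0.894 for Fads1 and Scd2, 0.873 for Fads2 and Scd1, 0.871 for Fads1 and Scd1, and 0.868 for Elovl5 and Scd1, which lie on different chromosomes. All pairs were read in the same libraries, which differ in age and depth, so the correlations are descriptions.

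Most of Fads2 was given to an assembled transcript with a start inside the first RefSeq intron. MSTRG.10353.1 held 80% of the FPKM and NM_019699 held 20%. MSTRG.10353.1 starts 9312 nt downstream of the RefSeq start. Its own first exon (chr19:10091998-10092191) is not part of any GENCODE exon of Fads2 and was covered at 0.028 to 0.105. The RefSeq first exon (chr19:10101223-10101503) was at 0.708 to 2.12. The assembled transcript also runs 1388 nt further at the 3′ end than the RefSeq one, a stretch that GENCODE counts as exon of Fads2 and that was covered at 2.26 to 3.9. Counting RefSeq transcripts alone leaves most Fads2 reads out, and then 0 members were called on the slope (Fads2 -0.0725, edgeR adjusted p = 0.13; Fads1 -0.0461, 0.18). At 18M the first exon of NM_019699 had 0.51 times its mean 3M coverage, and the 1388 nt stretch 0.703 times.

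In the test of single transcripts, 0 of the 15 member transcripts that passed the filter were called on the slope by edgeR, the background being 0.0103% of 58289. At an unadjusted p of 0.05 or less stood 7, beside 7.15% of all transcripts, and DESeq2 called 4, beside 1.28%. In the contrast of the youngest with the oldest mice edgeR also called 0 (background 0.108%), with 6 at an unadjusted p (background 5.4%) and 5 by DESeq2 (background 3.16%). The largest difference was in MSTRG.10355.2, a form of Fads1 with another first exon that held 6.46% of the gene's FPKM: it had 246, 159 and 68 reads at 3M, 693, 382 and 1 at 12M, and 0 to 2 in every 6M and 18M library. Its own first exon (chr19:10184686-10184766) was covered at 0 to 0.0361, and the ages overlapped there.

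The 3′ UTR of Fads6 was divided between transcripts that the rule did not take together. GENCODE extends the last exon of Fads6 to chr11:115279622, whereas RefSeq NM_178035 stops at chr11:115283366. Over that stretch the table has MSTRG.3854.1 (chr11:115279684-115282739, minus strand), which carries the symbol Fads6 with class code p and is thus no member, and MSTRG.3853.1 (chr11:115278759-115282727, plus strand), which has no symbol. MSTRG.3854.1 had 429 and 326 reads in 3M-2 and 3M-3, 368 in 6M-3, 248 and 231 in 12M-1 and 12M-2 and 165 in 18M-1, and was at 0 in the other 6 libraries. MSTRG.3853.1 was at 103 to 113 reads in 3M-2, 3M-3, 6M-3 and 12M-2 and at 239 to 467 in the rest. Their sum, not scaled to library size, was 460, 534 and 429 reads at 3M and 459, 467 and 481 at 6M. It was 666, 339 and 388 at 12M and 404, 298 and 346 at 18M. All 18M libraries were thus below all of 3M and 6M, while those of 12M lay on both sides. With both classes of the symbol counted, the slope of Fads6 was -0.074 in place of -0.0395 (edgeR, adjusted p = 0.285).

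**Figure D5:**
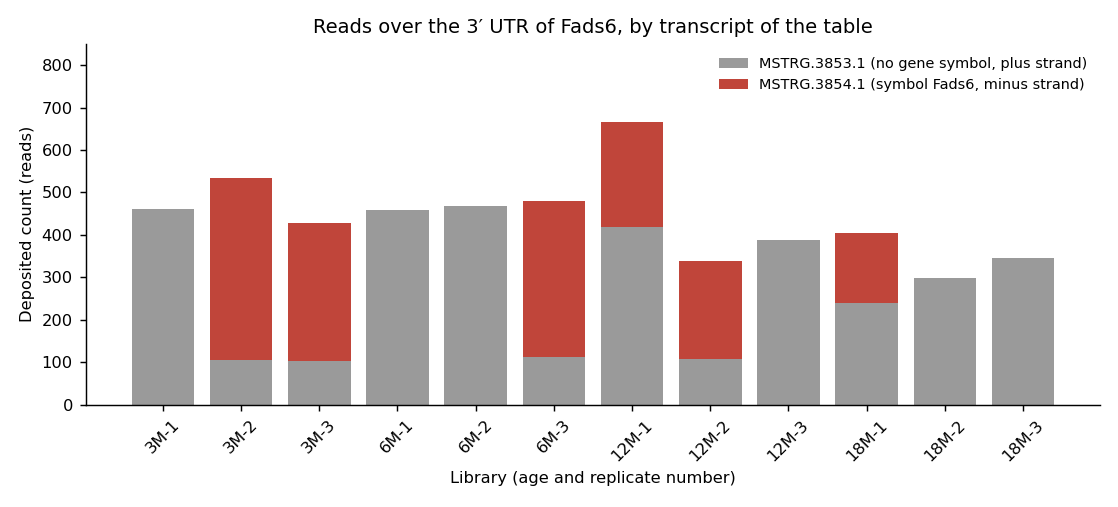
Deposited counts of the 2 transcripts over the annotated 3′ UTR of Fads6, stacked, in each of the 12 libraries. The red part is at 0 in 6 libraries, while the stacked height, not scaled to library size, lies between 298 and 666 reads.

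The neighbouring steps of fatty acid metabolism were read from 9 lists with 82 genes, of which 79 were tested. On the slope 1 was called lower in older mice and 0 higher, beside 0.313% and 0.0971% of all genes, and the median slope was -0.0047. The called gene was Mbtps1, the protease that makes the first cut in activating the SREBP regulators of lipid synthesis, with a mean of 9.43 ± 0.229 FPKM at 3M and a slope of -0.0191 per month (SE 0.0037, edgeR, adjusted p = 0.0458). DESeq2 called 7 lower and 0 higher, beside 3.11% of all genes, namely Acly, Acox3, Adipor2, Cyb5r3, Fasn, Mbtps1 and Scap. At an unadjusted p stood 16 lower and 2 higher of the 79, beside 9.23% and 8.26% of all genes. Between 3M and 18M, 0 of 78 were called by edgeR, 13 stood at an unadjusted p of 0.05 or less (background 13.5%) and DESeq2 called 4 (background 1.43%).

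In the fatty acid synthesis list 8 of 8 slopes were below 0 and 0 were called by edgeR (4 lower at an unadjusted p, 2 by DESeq2). Its most abundant genes, the NADPH producer Me1 (76.5 to 95.4 FPKM) and the mitochondrial transferase Mcat (22.6 to 27.9 FPKM), had slopes of -0.008 and -0.001. In the elongation cycle, the enzymes that complete each round after the elongase, 4 of 7 slopes were below 0 and 0 were called by edgeR (1 lower at an unadjusted p, 0 by DESeq2), with the dehydratase Hacd2 (29.1 to 45.1 FPKM, slope 0.0094) and the reductase Tecr (22.7 to 27.5 FPKM, slope -0.0001) on top. Of the electron donors that desaturases draw on, 5 of 7 slopes were below 0 and 0 were called by edgeR (2 lower at an unadjusted p, 1 by DESeq2), led by Cyb5r4 (22.8 to 25.1 FPKM, slope 0.0018) and Cyb5r3 (16.8 to 21.2 FPKM, slope -0.0135).

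In the remaining lists edgeR called Mbtps1 alone. At an unadjusted p of 0.05 or less, where 17.5% of all genes stood, were 1 of 7 other elongases and desaturases (lower), 3 of 7 acyl-CoA synthetases (2 lower, 1 higher), 2 of 11 acyltransferases (1 lower, 1 higher), 0 of 5 ceramide synthases, 2 of 11 peroxisomal genes (both lower) and 3 of 16 regulators (all lower). DESeq2 called 1 peroxisomal gene and 3 regulators there. Of the other elongases and desaturases, Degs1, which makes ceramide from its saturated precursor, was at 3.72 to 5.54 FPKM (slope -0.0219) and Elovl1 at 2.48 to 4.06 FPKM (slope -0.0125). The acyl-CoA synthetases were led by Acsl1 (205 to 228 FPKM, slope 0.006) and the testis enzyme Acsbg2 (107 to 126 FPKM, slope 0.0032), and the acyltransferases by Agpat1 (144 to 154 FPKM, slope 0.0027) and Agpat3 (61.4 to 109 FPKM, slope 0.0079). Cers3 (16.1 to 19.4 FPKM, slope 0.0026) and Cers5 (7.9 to 11.4 FPKM, slope -0.0077) led the ceramide synthases, Acot8 (15 to 19.4 FPKM, slope 0.0025) and Hsd17b4 (11.7 to 15.3 FPKM, slope -0.0037) peroxisomal chain shortening, and Insig2 (17.6 to 21.6 FPKM, slope -0.0066) and Nr1h2 (18.3 to 21.5 FPKM, slope 0.0032) the regulators.

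Of 7 markers of Leydig cells, the testosterone-producing cells between the tubules, 3 were called lower and 0 higher in older mice on the slope by edgeR, beside 0.313% and 0.0971% of all genes, and 5 lower by DESeq2, beside 3.11%. The 3 were Cyp17a1, Cyp11a1 and Lhcgr, and none was at 0 in all libraries. The other 4 were not called by edgeR, with slopes of -0.0648 for Hsd3b6 (adjusted p = 0.0517), -0.0577 for Star (0.078), -0.0322 for Insl3 (0.241) and 0.0032 for Hsd3b1 (0.931). Cyp17a1, the enzyme that leads from progestins to androgens, had a slope of -0.0974 per month (SE 0.0074, edgeR, adjusted p = 2.83e-05). The summed Leydig level was 1010 to 1160 FPKM in the 3M libraries, 931 to 1700 in the 6M, 763 to 819 in the 12M and 700 to 967 in the 18M libraries. Most of that sum was Insl3, at 627 to 1520 FPKM, so it says little about the 3 called markers. Of the other 11 marker lists edgeR called 0 genes, and DESeq2 called Pecam1 of the endothelium lower and Acrv1 and Spaca1 of round spermatids higher. At an unadjusted p of 0.05 or less, where 17.5% of all genes stood, were 4 of 7 round spermatid markers (all higher), 1 each of elongating spermatids and spermatocytes (higher), 2 of 7 of spermatogonia (1 lower, 1 higher), 2 of 5 of endothelium (lower) and 1 each of macrophages and fat cells (lower). There were 0 such markers of Sertoli, peritubular myoid and red blood cells and of the epididymis. Summed levels over the 12 libraries were 58.5 to 78.5 FPKM for Sertoli cells, 319 to 353 for spermatocytes and 32.8 to 38.7 for spermatogonia. Macrophages were at 17.6 to 27.7 FPKM, endothelium at 2.61 to 3.77, peritubular myoid cells at 23.4 to 33 and red blood cells at 19.4 to 63.9. The part of cell composition in the fall of Fads1 and Fads2 was not tested.

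The genes whose log2(CPM + 1) followed each member most closely over the 12 libraries were read as a description, by Pearson's r among 11678 genes. For Fads1 they were Jak2 (0.975), Hsd3b6 (0.962), a steroidogenic enzyme of adult Leydig cells, and Scap (0.959), the escort protein of SREBP. For Fads2 they were Col3a1 (0.986), Ece1 (0.964) and the prolactin receptor Prlr (0.962). Scd1 was closest to Ces1d (0.977), Tmem164 (0.976) and Nedd4 (0.967), and genes close to Scd2 included Ppp1ca (0.97) and Twsg1 (0.962). Elovl5 was closest to Nr5a1 (0.936), the regulator of steroidogenic genes, Acsbg1 (0.929) and Fkbp10 (0.927). For Elovl6 the values were 0.922 for Stambp, 0.921 for Wdr75 and 0.919 for Dsg1a. Elovl2, with its split between libraries, was closest to C2cd2l (0.916), Mtmr3 (0.889) and Nphp4 (0.872). All were read in the same 12 libraries, which differ in age and depth.

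Promoter windows of 300 nt (250 before and 50 after a start, RefSeq, GRCm38.p6) were found for 7 of the 10 members, with 8 windows in all. Fads1, Scd1 and Scd2 had none. Searched on both strands, the sterol response element TCACNCCAC was in 0 of the 8 windows and in 1.24% of 32817 windows of all genes, and the direct repeat AGGTCA with N between its copies was in 0 and in 0.0396%. The CCAAT box was in 3 of the 8, those of Elovl4, Elovl5 and Fads3, and in 37.4% of all windows. GGGCGG was in 5 of the 8, those of Fads2, Fads3, Fads6, Elovl4 and the outer start of Elovl2, and in 35.6% of all. The outer Elovl2 window held 56 CpG dinucleotides, more than 99.8% of all windows, whose median was 7. The other member windows held 14 to 45.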

How the data were processed

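Total RNA from testes of C57BL/6 mice, in 12 libraries, 3 at each of 4 ages, was depleted of ribosomal RNA and sequenced from both ends with no record of strand. HISAT2 was the authors' aligner (mm10), and StringTie 1.3.3b assembled and quantified the transcripts. Their deposited table gives an estimated count per transcript, equal to coverage times length over the read length of 101 and rounded up to a whole number, and a deposited FPKM with no further scaling between libraries; exon coverage is the signal in the deposited StringTie files.

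Counts and FPKM were summed per gene symbol over class codes =, c, j and o. The test was edgeR's quasi-likelihood one (version 4.0.16, R 4.3.3) after filterByExpr and TMM, with Benjamini-Hochberg adjustment over all genes or transcripts; a feature was called at an adjusted p of 0.05 or less: the slope on age in months over 12 libraries, and pairs of ages with only their libraries. DESeq2 1.42.0 was an alternative. Exon coverage was scaled to 1000000 TMM-scaled reads and set beside GENCODE vM21, of the same build. Single values were tested by exact permutation of 3 against 3, which cannot go below 0.1. The fits were first run on simulated counts that held known changes. The members, gene lists and rules were chosen with earlier results of these data known. Named are all members, their transcripts with 5% or more of the gene's FPKM, list genes that were called or are the 2 highest of their list, and the 3 genes with the highest correlation to each member with a mean of 5 CPM or more, except 1 that is not reported here; other genes and exons were named after their values were seen. The design calls the 3 samples of an age biological replicates; whether each is a single mouse is not stated, and the mice of an age may share a litter, so p-values measure the spread between these samples. Other steps used pandas 2.3.3, numpy 2.4.6 and scipy 1.17.1 under Python 3.11.15, and plots matplotlib 3.10.9.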

Additional observations from a re-analysis of the deposited data

Results flagged for a closer look

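Both transcripts with a member's symbol but another class code lay outside the reported tests and entered only the alternative that counts all class codes, and both had reads. MSTRG.3854.1, over the 3′ UTR of Fads6, had up to 429 reads and a lowest count of 0. MSTRG.13465.1, assembled on the minus strand within the Elovl6 locus and overlapping the first exon of MSTRG.13464.2, had 28 to 70 reads in all 12 libraries; without strand its reads cannot be told apart from those of Elovl6.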

How the results depend on the processing

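The count of members called, 2 in the reported test, was 4 with DESeq2, which added Fads6 and Scd1, 0 with RefSeq transcripts alone, 1 with the replicate block and 0 to 3 with each library left out, lowest without 18M-3 and highest without 18M-1; 7 of the 12 omissions lowered it. Of the alternatives chosen after the data were seen, the first-to-last exon coverage as a covariate left 1, and leaving out 12M-3 and 18M-3 together left 0. The genes called in all, 76, became 42 with the block and 18 to 192 with a library left out. Deviations from the age means gave little sign that replicate numbers pair the samples, though they cannot exclude a pairing. Same-numbered libraries of different ages had correlated deviations above 0.1 in 1 of 18 pairs (median r -0.00941, beside 0.00188 for different numbers). Of 12 libraries, 5 correlated best with their own number. With DESeq2 the count was 2 between 3M and 18M and 2 between 6M and 12M instead of 0, and 4 on the slope and 5 between 3M and 18M for transcripts. Across all genes DESeq2 called 576 on the slope and 260 between 3M and 18M. The cause of these differences was not tested. The direction turned for Elovl4 on the slope without 3M-3 (-0.0085), without 18M-3 (-0.0074), with the exon coverage covariate (-0.0030) and without 12M-3 and 18M-3 (-0.0078), for Elovl4 between 3M and 18M without 3M-3 (-0.02), and for Fads3 without 3M-1 (-0.04). With single libraries left out the Elovl2 slope ranged from -0.0901 to -0.0323 and its ratio to Elovl5 from -1.03 to -0.19, and values ranged from -0.0085 to 0.0223 for the Elovl4 slope, from -0.02 to 0.85 for Elovl4 and from -0.04 to 0.24 for Fads3 between 3M and 18M. The ratio of Fads1 to Fads2 moved to 0.03 with FPKM and a pseudocount of 1 and to 0.45 with RefSeq transcripts alone, and that of Scd1 to Scd2 to -0.16 with the pseudocount of 1. Of 349 alternatives for the slopes and the 3M to 18M changes of single members, 324 kept direction and side of the threshold. Most of these belong to results that were not called and so had no call to lose. Only the slopes of Fads1 and Fads2 were called, and their alternatives lost the call in 14 cases. Scaled to the same sum of 1000000 in every library, FPKM of Fads2 was 79.6 at 3M and 48.7 at 18M. Depth limits Elovl4 most, at 7 to 34 reads a library.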
